A study of Homo sapiens with 6 samples.

Results

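The untreated control clones of U2OS, an adherent cell line derived from a human osteosarcoma, were profiled on Illumina bead arrays to give the reference state for a study of MBTD1 loss. All 3 samples titled as controls were taken by their titles, out of 6 samples in the series. The other samples carry a CRISPR/Cas9 knockout of MBTD1 and were used here only to put the arrays on a common scale and to tell genes measured by 1 probe from averaged ones. The controls are U2OS cells with the genotype given as control, grown untreated in DMEM with 10% serum, and 1 array was run per clone. The titles read "control KO" and the descriptions "control clone", whereas the series' design text speaks of wild-type cells, so how these clones were derived, and whether they passed through editing, is not known. Spread between the 3 arrays joins clone, culture and hybridisation, and no group was compared with another.

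Osteosarcoma is a bone tumour whose cells lay down an osteoid-like matrix and resemble stalled cells of the osteoblast line. In that line RUNX2 and SP7 (osterix) switch on type I collagen, alkaline phosphatase and the mineral-binding proteins of bone. U2OS is known for lengthening its telomeres without telomerase and for lacking the CDK inhibitor p16. Tumour suppressors can be lost by deletion, mutation or promoter methylation, and an array reports transcript signal and none of these events.

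Each value is the mean brightness of the beads that carry a gene's probes, in arbitrary intensity units as deposited, neither background-subtracted nor scaled between arrays. Values are given in the order control 1, control 2 and control 3. A detection p sets each signal against negative controls on the same array. Their number, 770, was inferred from the steps in which p moves. A gene was called detected where the detection p was under 0.05. Among 26150 genes measured by 1 probe, p never rose with signal, so that the threshold corresponds to signals of 87.3, 88.0 and 86.6 on the 3 arrays. In 8452 genes several probes had been averaged. For these the deposited p can be high although the mean signal is bright, as in RPLP0, a ribosomal stalk protein gene, with signals of 2328, 1971 and 2272 and p-values of 0.0816, 0.0085 and 0.0617. A mean above the threshold needs at least 1 probe above it, so an averaged gene is called undetected below only where its mean signal also lay under the threshold on all 3 arrays. Counts are also given, where they move by over 1.5 times, at a detection p under 0.01 or over genes whose p moves in whole steps of 1/770. The whole-step setting leaves out most averaged genes, and those it keeps were detected in all 3 clones. A lower count there reflects genes left out and not a failed detection. Probes differ in efficiency, and a brighter gene is not thereby a more abundant RNA. Likewise an undetected gene shows no signal above background on its probes, which does not show that its RNA is missing.

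In all, 10513 of 34602 human genes on the array (30.4%) were detected in all 3 clones, 17694 (51.1%) in none and 6395 in 1 or 2 clones. Among 18756 entries that matched a current RefSeq protein-coding gene 44.5% were detected in all 3 clones and 39.0% in none. The median signal over all genes was 85.1, 85.7 and 84.7, and over the genes detected in all 3 clones 132, 144 and 132. Most detected genes were dim: the lower quartile of the lowest of a gene's 3 signals was 97.3, the median 128 and the upper quartile 227, while the highest reached 11862. Olfactory receptors, which belong to nasal sensory neurons and were chosen as a yardstick after the files had been read, were detected in all 3 clones in 5 of 377 cases (1.33%) and in none in 339 (89.9%). Their detected members had a highest mean signal of 97.7, and none lay in the bright class defined next.

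**Figure D1:**
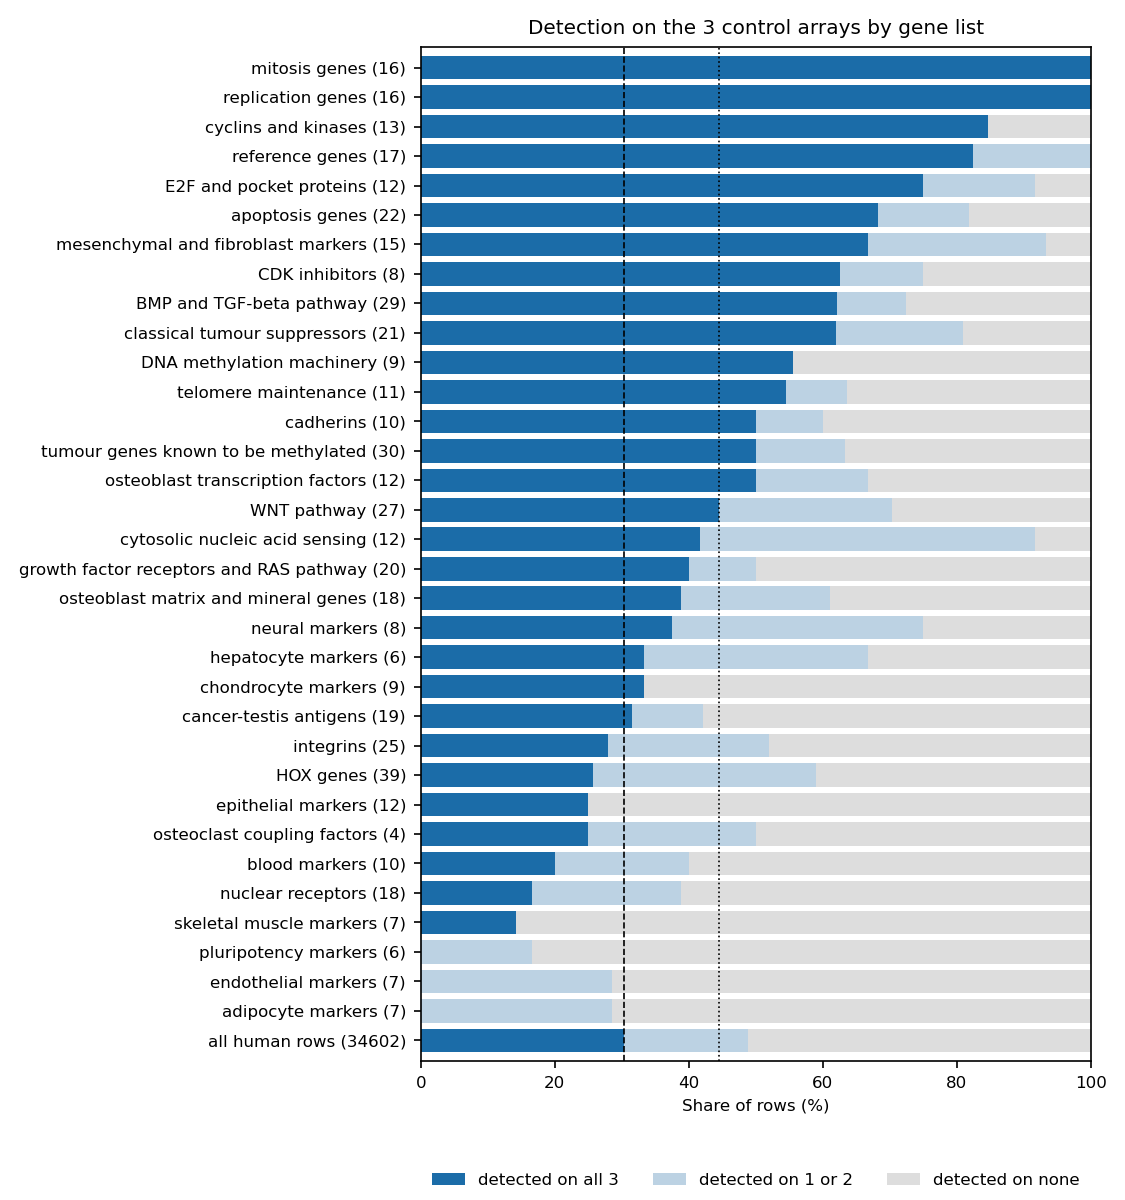
Share of each gene list shown that was detected on all 3 control arrays (dark blue), on 1 or 2 (pale blue) and on none (grey), with 0.05 as the limit on the detection p; brackets give the size of each list. The dashed line marks 30.4%, the share over all human genes, and the dotted line 44.5%, the share over protein-coding genes; all 16 mitosis and all 16 replication genes were detected in every clone, and 0 of 7 endothelial and 0 of 7 adipocyte markers were, though 2 adipocyte markers lay above the threshold by signal.

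A gene was called bright where its signal lay in the top 10% on every control array, which 3148 genes (9.1%) did, and 13.6% of the protein-coding entries. Of these, 2925 were also detected in all 3 clones, and the other 223 were averaged genes with a high p. Provisional LOC entries made up 477 of the bright genes and are not named.

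The 15 brightest named genes included genes of translation and glycolysis, beside pseudogenes and sparsely described entries. ANXA2P2, an annexin A2 pseudogene, gave 11055, 11141 and 10131, and ANXA2 itself, whose transcript it closely resembles, gave 2602, 3335 and 3214. GNB2L1, now RACK1, a scaffold protein of the small ribosomal subunit, gave 8678, 8933 and 8659. EEF1A1, which brings aminoacyl-tRNA to the ribosome, gave 6478, 7443 and 6983. The glycolytic enzyme ENO1 gave 6052, 6524 and 6355. All of these were high in every clone, and the clones differed far less from each other than from the threshold.

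RPS12, a small-subunit ribosomal protein, gave 8637, 5484 and 7291, and OAZ1, the antizyme that limits polyamine synthesis, gave 7333, 5826 and 6194. For both, control 1 was the highest and control 2 the lowest. RN7SL1, the RNA of the signal recognition particle, gave 6047, 6766 and 6159. The thrombin receptor F2R gave 5911, 6439.9 and 6047, the cytokine IL18 gave 6108, 6240.5 and 5861 and FARSLB, now FARSB, a subunit of the phenylalanine tRNA synthetase, gave 8011, 7692 and 7414. The remaining names among the 15 brightest were the zinc finger gene ZNF674 (10031, 10779 and 10331), the pseudogene RRP7B (7429, 7209 and 6542), the leukocyte receptor LAIR1 (6073, 6672 and 6257) and the chromosome 19 entries NAG18 (6049.5, 5912 and 6054) and C19ORF31 (5628, 5541 and 5481). NAG18 and C19ORF31 had detection p-values of 0.11, 0.372 and 0.054 and of 0.442, 0.376 and 0.29, and both, like LAIR1, were averaged over several probes. The common leukocyte antigen PTPRC was undetected, at 80.1, 81.2 and 81.2. Probe sequences were not used here, and signal from near-identical transcripts cannot be told apart from that of the named gene.

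MBTD1 itself, the reader of methylated histone tails that the study targets, was detected in all 3 controls at 98, 102 and 97.9, or 99.3 ± 2.29 (SD, n = 3), near the threshold.

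Of 12 transcription factors of the osteoblast line, 6 were detected in all 3 clones, 2 in 1 clone and 4 in none, with a median signal of 101 against 84.8 over all genes. Their share of 6 in 12 lies near the 44.5% of protein-coding genes and above the 30.4% of all genes. Of 18 matrix and mineral genes, 7 were detected in all 3 clones, 4 in 1 or 2 and 7 in none, with a median of 85.9, and the share detected was 38.9%. Type I collagen chain COL1A1, type V chain COL5A1 and SPARC were bright, while the osteoblast factors SP7 and DLX5 and the partner chain COL1A2 were undetected.

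SP7, which acts downstream of RUNX2 in committed osteoblasts, gave 84.2, 84.2 and 84.9 with detection p-values of 0.231, 0.281 and 0.127. All 3 clones lay at background. RUNX2, the master factor, had averaged probes with signals of 90.1, 108 and 97.5 and p-values of 0.585, 0.198 and 0.0887. Its mean lay above the threshold on every array although no p passed, so its state cannot be settled from these values. MSX1, a homeobox factor of early skeletal mesenchyme, was clearly present at 263, 249.7 and 227. MSX2 passed in control 2 only (84.2, 90.8 and 84.5) and DLX3 in control 3 only (87.1, 83.8 and 87.6). ATF4, which osteoblasts need for amino acid supply and which most cells express, was bright at 1409.6, 1652 and 1496.

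Among matrix genes COL1A1 gave 606, 502 and 508, whereas COL1A2, which encodes the chain that pairs with it in type I collagen, gave 82.6, 82.6 and 83.8. The COL1A1 values did not overlap background in any clone, and those of COL1A2 were indistinguishable from it. COL5A1 gave 559, 670.2 and 650.1, and SPARC, which binds collagen and mineral, 223, 306 and 234. ALPL, the alkaline phosphatase that frees phosphate for mineral, gave 174, 196 and 172, and SPP1 (osteopontin) gave 129.5, 162 and 149, both detected in every clone.

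The late mineral genes were at or near background. IBSP (bone sialoprotein) passed in all 3 clones but only just, at 88.4, 89 and 88.3 with p-values of 0.0325, 0.0247 and 0.0325. BGLAP (osteocalcin) passed in 2 clones, at 88, 85.8 and 88.7. The osteocyte genes DMP1 (81.8, 83 and 83.6) and SOST (82.5, 82.7 and 79.6) were undetected, and so were the small proteoglycans BGN (82.5, 84.4 and 83), DCN (81.6, 84.4 and 80.6) and OMD (85.6, 83.6 and 82.8). Of the factors through which osteoblasts control osteoclasts, TNFRSF11B (osteoprotegerin), the decoy receptor, was detected at 116, 151 and 128, while its ligand TNFSF11 (RANKL) was undetected at 81.6, 81.5 and 82 and CSF1 at 79, 79.1 and 82.4.

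**Figure D2:**
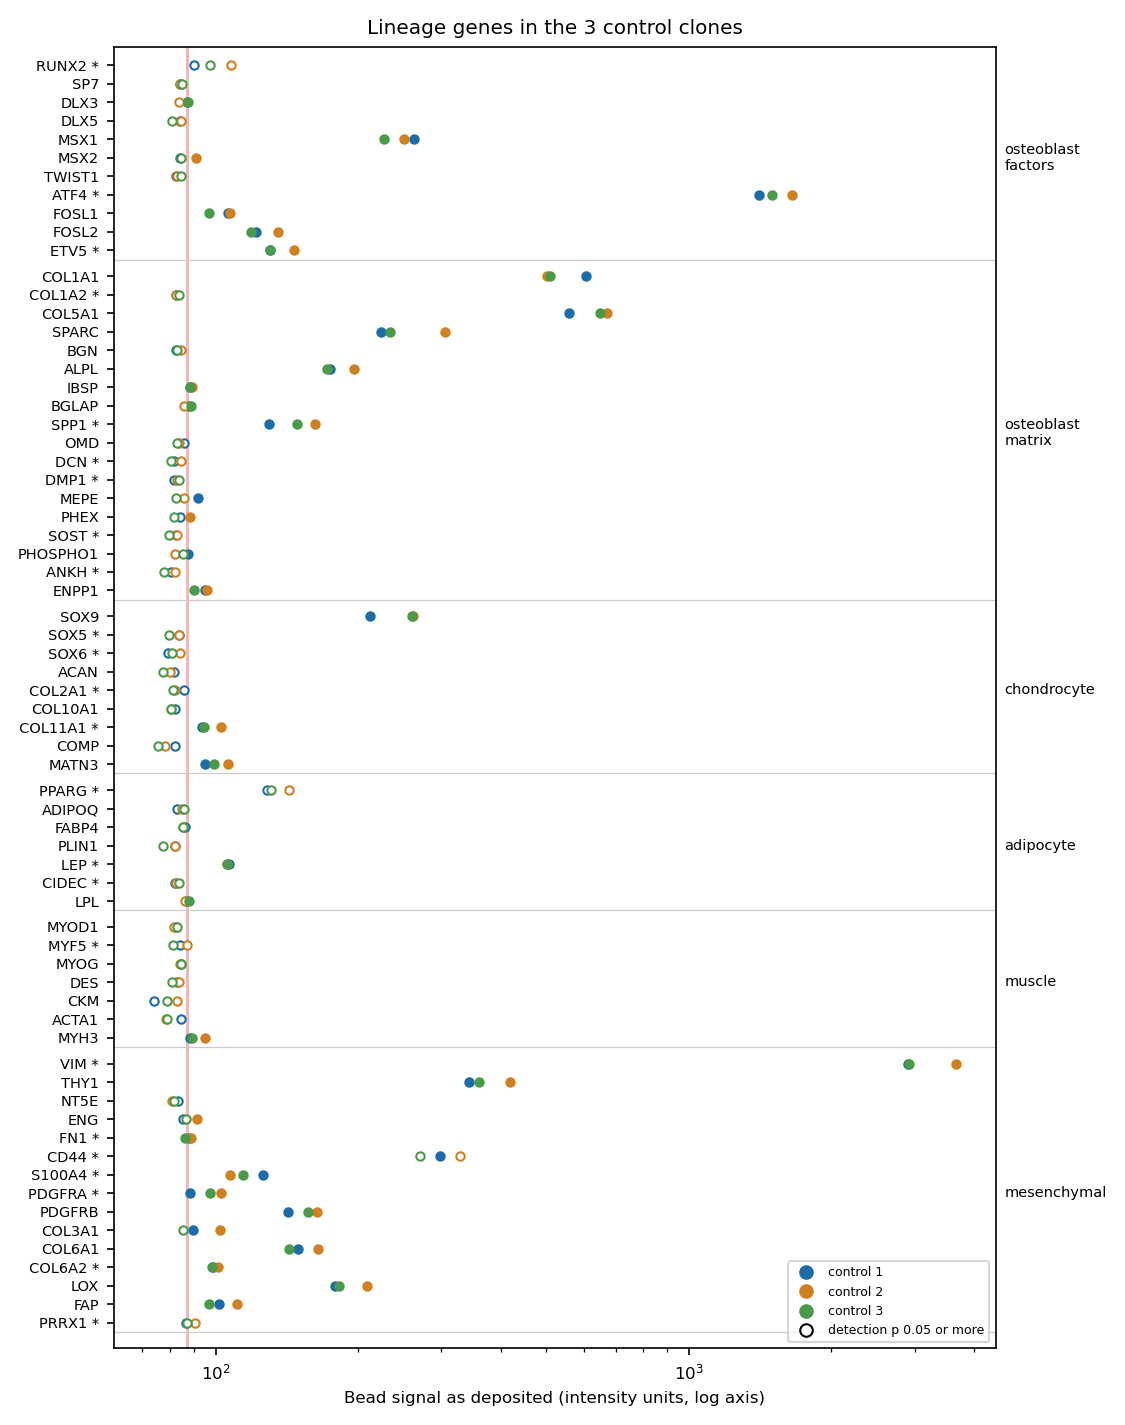
Deposited bead signal on a log axis for the reported lineage genes, 1 point per control clone; filled points had a detection p under 0.05, the pink band spans the 3 arrays' detection thresholds and an asterisk marks genes averaged over several probes. COL1A1 lies between 502 and 606 in the 3 clones while COL1A2, SP7 and the muscle factor MYOD1 lie left of the band.

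Among markers of neighbouring mesenchymal fates, 33.3% of chondrocyte, 14.3% of muscle and 0.0% of adipocyte genes were detected in all 3 clones. The share was 30.4% over all genes and 44.5% over protein-coding genes. Detected in none were 51.1% of all and 39.0% of protein-coding genes. SOX9, the master factor of cartilage, was detected at 212, 262 and 261, and MATN3 and COL11A1, cartilage matrix genes, passed at 95, 106 and 99.4 and 93.4, 103 and 94.3. The other 6 of 9 chondrocyte markers were undetected, among them ACAN (81.5, 80.2 and 77.6) and COL2A1 (85.9, 82.2 and 81.2), the main proteoglycan and collagen of cartilage. Of 7 muscle markers, MYH3, an embryonic myosin, passed near the threshold at 88.4, 95.2 and 89.3, and 6 were undetected, including MYOD1 at 82.5, 81.8 and 83. MYH3 did not pass at a p under 0.01. Of 7 adipocyte markers 0 passed in all 3 clones, 2 in 1 or 2 and 5 in none. LEP (leptin) passed in controls 1 and 3, at 107, 106 and 106, above the threshold by signal on every array. PPARG, the adipocyte master factor, had a mean signal of 128, 143 and 131 over several probes. Its detection p-values were 0.07, 0.191 and 0.148, so its state could not be settled.

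Of 15 general mesenchymal markers 10 were detected in all 3 clones (66.7%, against 30.4% of all and 44.5% of protein-coding genes), 4 in 1 or 2 and 1 in none. VIM, the intermediate filament protein of mesenchyme, gave 2898, 3659.9 and 2914. THY1, a surface marker of stromal cells, gave 343, 419.7 and 359.8, and LOX, which crosslinks collagen, 179, 209 and 183. PDGFRB, a growth factor receptor of stromal cells, gave 142, 164 and 157. NT5E (CD73), used with THY1 to define mesenchymal stromal cells, was undetected at 83.3, 80.9 and 81.5, and ENG (CD105), the other such marker, passed in control 2 only, at 85.5, 91.2 and 86.5. FN1 (fibronectin), averaged over several probes, passed with p-values of 0.004, 0.0017 and 0.0039 at signals of 88, 88.6 and 86.2, the last of which lies under that array's signal threshold.

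Markers of unrelated cell types were detected at shares near or below those of all genes. Of 12 epithelial markers 3 were detected (1 at a p under 0.01) and 9 undetected. EPCAM, an adhesion protein of epithelia, was low but above the threshold in every clone at 102 ± 5.34 (SD, n = 3), and MUC1, a mucin, gave 112, 122 and 120.5. CDH1 (E-cadherin) gave 82.7, 87.9 and 82.3, KRT5 78.8, 76.8 and 77.4 and KRT14 80.5, 83.5 and 83.1, all undetected. Of 10 blood markers 2 passed (0 at a p under 0.01), CD68, a lysosomal protein that many cells make, at 168, 159 and 166, and HLA-DRA at 95.4, 93.9 and 93.3, while CIITA, the factor that drives HLA-DRA, was undetected at 78.3, 84.5 and 81.7. Of the 7 endothelial markers 0 were detected in all 3 clones (1 without control 1), with CDH5 at 79, 78.9 and 78.4. Of 6 hepatocyte markers, 3 of them averaged, 2 passed (1 over genes in whole steps). AFP (140.0, 128 and 119) and SERPINA1 (126, 139 and 129) were detected, and ALB gave 82.6, 87.4 and 86.2, detected in control 2 only. Of 8 neural markers OLIG2, a glial and motor neuron factor, passed at 113, 111 and 112 and the progenitor filament NES at 113, 112 and 111; MAP2 passed by p with a mean under the signal threshold in each clone, and GFAP gave 81.9, 85.7 and 81.5. Of 6 pluripotency markers 0 passed in all 3 clones (1 without control 2, and 1 by signal, SOX2 at 90.4, 90.9 and 98.2), with POU5F1 at 82.3, 80.7 and 81.4 and NANOG at 81.2, 80.6 and 81.5. Over these 6 lists the share detected was 0% to 37.5%, against 30.4% over all genes and 44.5% over protein-coding genes.

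Among 10 cadherins, 5 were detected in all 3 clones, near the 44.5% of protein-coding genes. CDH2 (N-cadherin) gave 1068, 1010.2 and 909.6 and CDH11, the osteoblast cadherin, 157, 169 and 161, while CDH1, CDH3, CDH5 and CDH8 were undetected. Among 25 integrin subunits 7 were detected, 6 in 1 or 2 clones and 12 undetected, and the share of 28.0% lies near the 30.4% of all genes and below that of protein-coding genes. ITGB1, the common beta subunit, gave 713, 1203 and 869, and its fibronectin-binding partner ITGA5 gave 240.5, 288 and 242. ITGAV, which pairs with ITGB5 and other beta subunits, gave 216, 336 and 265. ITGB2, a subunit best known from leukocytes, passed at 224, 234 and 216, whereas its leukocyte partners ITGAL (82.2, 79.6 and 77.8) and ITGAM (79.8, 83.5 and 83.5) were undetected. ITGA1, ITGA8, ITGB3 and ITGB6 lay at background.

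Genes of cell division were detected throughout. All 16 mitosis genes and all 16 replication genes were detected in every clone, against 30.4% of all and 44.5% of protein-coding genes. Of them 11 and 10 were bright, against 9.1% of all and 13.6% of protein-coding genes. Their median signals were 311 and 453. CDC20, which activates the anaphase-promoting complex, gave 3495, 3786 and 3491. TOP2A, the topoisomerase that untangles chromosomes, gave 949, 1658 and 1129, and BIRC5 (survivin), a part of the chromosomal passenger complex, 799, 879 and 739.5. AURKA, the centrosomal kinase, gave 506, 696 and 538. MKI67, the proliferation antigen, was dim at 105, 109 and 105 yet above background in every clone. In replication, TYMS, which makes thymidylate, gave 1195, 1640.2 and 1259 and the helicase subunits MCM6 and MCM3 gave 929, 1181 and 1027 and 837, 1059 and 893. POLA1, which starts DNA synthesis with primase, gave 155, 182 and 155. Control 2 was the highest array for most of these genes on the deposited scale. That scale is not adjusted between arrays, and control 2 was also the brightest over all detected genes, with medians of 132, 144 and 132.

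Promoters of the mitosis genes are shown because many carry the pair of elements known to time transcription to late cell cycle, the CCAAT box bound by NF-Y and the cell cycle genes homology region. The windows run from 250 bases before to 50 after the RefSeq transcription start (GRCh38.p14), with the letters CCAAT and TTTGAA, on either strand, in capitals. CDC20 lies at chr1:43358731-43359030, plus strand, TOP2A at chr17:40417847-40418146, minus strand and PLK1, the Polo-like kinase of mitotic entry, at chr16:23678639-23678938, plus strand.
CDC20: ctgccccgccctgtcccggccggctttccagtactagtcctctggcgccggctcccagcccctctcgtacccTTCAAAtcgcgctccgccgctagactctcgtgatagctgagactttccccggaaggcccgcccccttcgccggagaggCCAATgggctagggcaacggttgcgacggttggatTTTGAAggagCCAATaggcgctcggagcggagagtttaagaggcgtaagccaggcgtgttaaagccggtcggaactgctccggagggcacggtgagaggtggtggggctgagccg
TOP2A: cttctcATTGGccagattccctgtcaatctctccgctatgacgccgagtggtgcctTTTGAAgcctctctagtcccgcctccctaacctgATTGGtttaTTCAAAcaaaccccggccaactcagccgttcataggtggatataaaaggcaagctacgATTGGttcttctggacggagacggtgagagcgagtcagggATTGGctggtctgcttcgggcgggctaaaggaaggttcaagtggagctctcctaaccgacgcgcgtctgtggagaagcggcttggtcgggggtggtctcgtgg
PLK1: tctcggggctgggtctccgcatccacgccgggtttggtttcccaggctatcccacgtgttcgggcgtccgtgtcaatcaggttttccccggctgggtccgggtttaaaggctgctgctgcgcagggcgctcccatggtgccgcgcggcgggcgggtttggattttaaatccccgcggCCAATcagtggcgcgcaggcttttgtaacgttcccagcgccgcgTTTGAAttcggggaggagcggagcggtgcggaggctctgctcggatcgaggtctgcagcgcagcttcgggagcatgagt
Over the 11 mitosis genes with a single RefSeq promoter, 9 held CCAAT (81.8%), 7 held TTTGAA (63.6%) and 6 held both (54.5%). Over all 10508 protein-coding entries with a single promoter the shares were 37.5%, 12.1% and 5.26%. The E2F-type letters TTTCCCGC or TTTGGCGC stood in 5 of 9 replication promoters and in 1 of 11 mitosis promoters, against 3.16% of all. Each motif was counted on its own, overlaps included, and a match describes letters only.

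Of 13 cyclins and kinases, 11 were detected in every clone (84.6%, against 30.4% of all and 44.5% of protein-coding genes). The same number were bright, against 9.1% of all and 13.6% of protein-coding genes, and the median signal was 454. All D-type cyclins, which respond to growth signals, were present, CCND1 at 1054, 1149.5 and 1011, CCND2 at 779.5, 1089 and 815 and CCND3 at 775, 913 and 846. Their partners CDK4 and CDK6 gave 491, 614 and 531 and 358, 508 and 293. CCNE1, which opens S phase with CDK2, gave 306, 330.4 and 298. CCNE2 had a mean of 108, 135 and 112 over several probes without a p that passed, and the germline cyclin CCNA1 was undetected at 76.9, 77.8 and 80.7. Of the E2F and RB family, 9 of 12 were detected in all 3 clones. E2F2 gave 489.8, 622 and 513 and its partner TFDP1 508, 708 and 547, while E2F1 passed in 2 clones at 86.7, 89.5 and 95.3. RB1, the retinoblastoma protein that restrains E2F, was dim at 92, 101 and 94.5 and detected in every clone, and its relative RBL2 gave 193, 266 and 208.

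Of 8 CDK inhibitors 5 were detected in all 3 clones (62.5%, against 30.4% of all and 44.5% of protein-coding genes), 1 in 1 clone and 2 in none. The count was 3 at a p under 0.01 and 3 over genes in whole steps, where most of the 6 averaged members were left out. CDKN1A (p21) was bright at 1194, 1355 and 1167, and CDKN1B (p27) gave 140.0, 169 and 145. CDKN2A, which encodes p16 and ARF, was undetected at 81.6, 80.9 and 80.4 with p-values of 0.58, 0.87 and 0.699. All 3 clones lay below the threshold, and the several probes averaged here do not separate the transcripts of the locus. CDKN2B (p15), its neighbour, passed by p at 85.6, 88.4 and 86, with a mean above the signal threshold on 1 array. CDKN2D (p19) had a mean of 111, 112 and 106 with p-values of 0.178, 0.235 and 0.438 and could not be settled. CDKN3, a phosphatase that acts on CDKs and is made in dividing cells, gave 821, 704 and 744.

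**Figure D3:**
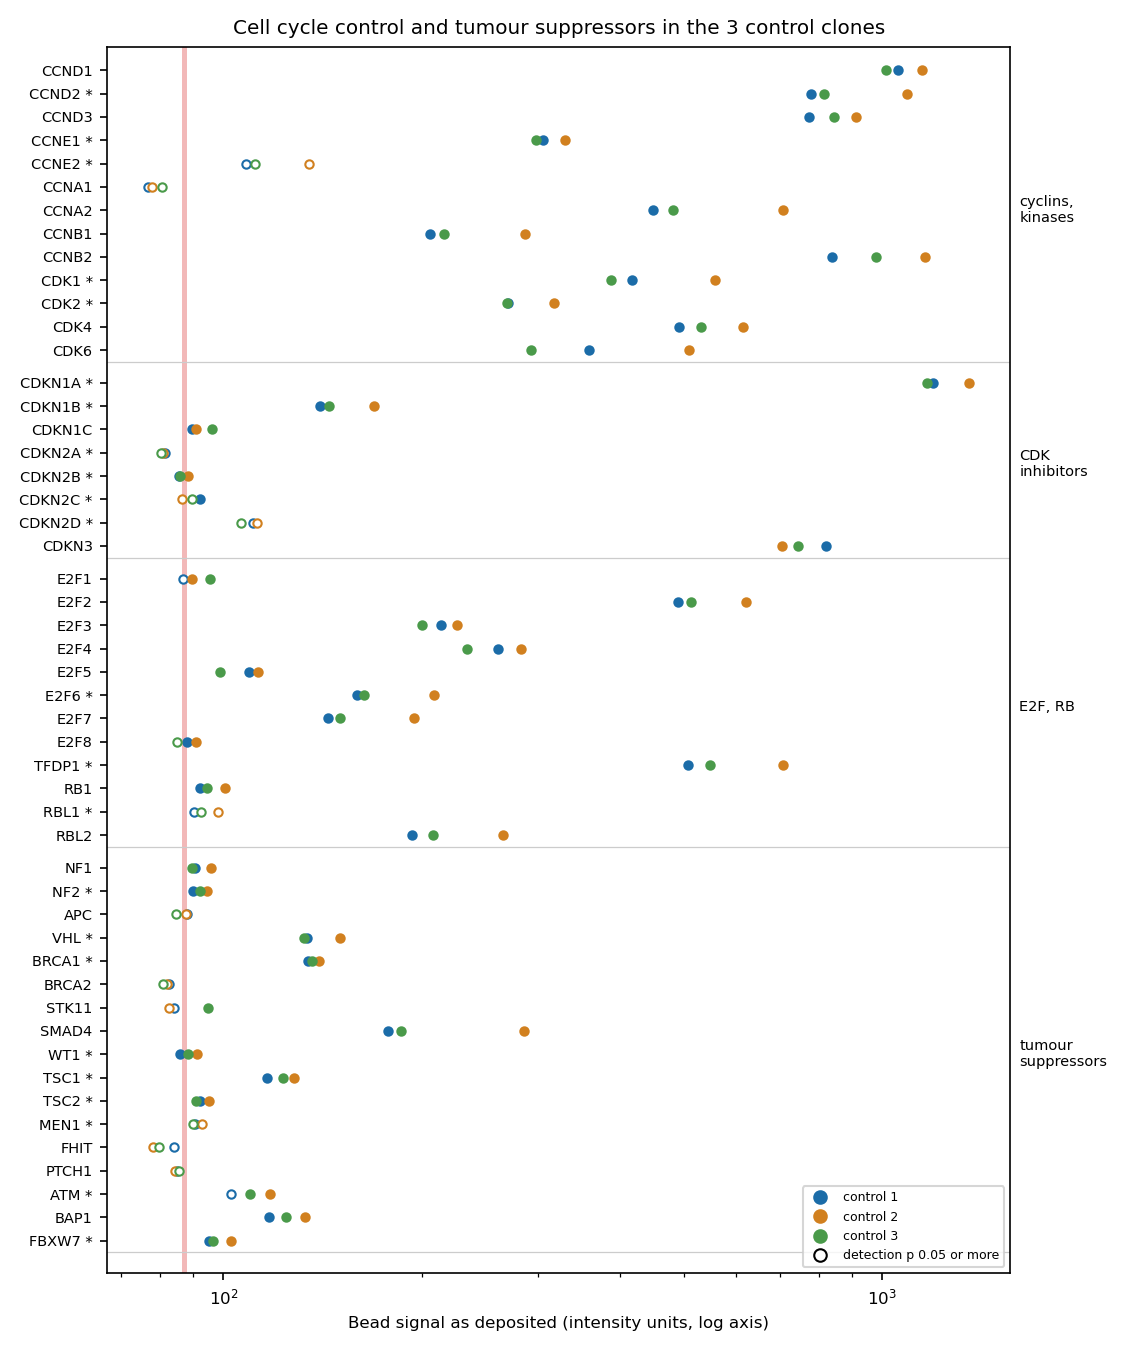
Deposited bead signal on a log axis for cyclins, CDK inhibitors, the E2F and RB family and reported members of the classical tumour suppressors, 1 point per control clone; filled points had a detection p under 0.05, the pink band spans the detection thresholds and an asterisk marks genes averaged over several probes. CDKN1A lies between 1167 and 1355 while CDKN2A lies left of the band in all 3 clones.

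Of 21 classical tumour suppressors, 13 were detected in every clone (61.9%, against 30.4% of all and 44.5% of protein-coding genes), 4 in 1 or 2 and 4 in none, and 0 were bright, against 9.1% of all genes. The count was 8 at a p under 0.01 and 7 over genes in whole steps, a setting that leaves out most averaged genes. Of the 21 genes 10 were averaged. SMAD4, the common mediator of TGF-beta signals, gave 178, 286 and 186. VHL, which targets hypoxia factors for degradation, gave 134, 150.2 and 133, and BRCA1 134, 139.7 and 136. NF1, a RAS-inactivating protein, gave 90.6, 95.8 and 89.7, just above background in each clone. FHIT, which spans a fragile site, gave 84, 78.2 and 79.9, BRCA2 82.7, 82.1 and 80.9 and PTCH1, the hedgehog receptor, 85.1, 84.4 and 85.5. These 3 and CDKN2A were the undetected members. STK11 (LKB1), a kinase of energy sensing, passed in control 3 only, at 84.1, 82.8 and 94.9, and APC, the WNT scaffold, in control 1 only, at 87.9, 87.8 and 84.8.

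Of 30 genes known from tumours to be silenced by promoter methylation, 15 were detected in all 3 clones, 4 in 1 or 2 and 11 in none, and the list's median signal was 90.1. Over protein-coding genes 44.5% were detected and 39.0% were not detected in any clone. GSTP1, a detoxifying transferase, was bright at 2443, 1661 and 2286, and the WNT modulator DKK3 gave 703, 636 and 653. THBS1, an inhibitor of vessel growth, gave 360.2, 590.3 and 380.0. MGMT, which removes alkyl groups from guanine, gave 163, 132 and 153 and was detected in every clone. The cell cycle inhibitor SFN (14-3-3 sigma) gave 239.9, 229 and 223.

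The 11 undetected members were CDKN2A, RARB, SFRP2, DKK1, CDH1, HIC1, TP73, PYCARD, IGFBP3, CASP8 and GADD45G. GADD45G, a stress sensor, gave 75.1, 76.7 and 78.1, the lowest mean of the list. TP73, a transcription factor, gave 79.8, 79.1 and 77.1, HIC1, a transcriptional repressor, 82.9, 81.5 and 85.2, and RARB, a retinoic acid receptor, 80.2, 82 and 83.6. CASP8, the initiator caspase of death receptors, gave 82.5, 85.3 and 82.3, and PYCARD, the inflammasome adaptor, 81.7, 80.5 and 83.4. The secreted WNT antagonists differed among themselves: SFRP1 was detected at 129.6, 158 and 129.5, SFRP2 and DKK1 were undetected at 83.3, 84.7 and 79.9 and 82.9, 85.1 and 79.7, and WIF1 passed in 2 clones at 91.6, 84.8 and 87.2. RASSF1, often methylated in tumours, passed at 98.6, 102 and 97.1, near the threshold.

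Promoters of 2 detected and 2 undetected members are printed as examples with CG, the dinucleotide that methylation acts on, in capitals. They were chosen with their values known, and other members differ: the detected SFN and LXN hold 7 and 9 CG and the undetected SFRP2 holds 15. The promoter of the undetected keratin gene KRT5 follows. The windows are those of RefSeq on GRCh38.p14, with GSTP1 at chr11:67583562-67583861, plus strand, MGMT at chr10:129466991-129467290, plus strand, IGFBP3 at chr7:45921223-45921522, minus strand, GADD45G at chr9:89604762-89605061, plus strand and KRT5 at chr12:52520345-52520644, minus strand.
GSTP1: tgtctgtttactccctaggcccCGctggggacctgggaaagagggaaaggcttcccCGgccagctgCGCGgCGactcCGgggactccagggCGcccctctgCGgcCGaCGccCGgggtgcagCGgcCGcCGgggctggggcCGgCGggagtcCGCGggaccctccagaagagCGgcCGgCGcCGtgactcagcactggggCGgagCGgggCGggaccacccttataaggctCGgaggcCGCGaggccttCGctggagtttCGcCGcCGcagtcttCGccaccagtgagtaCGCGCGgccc
MGMT: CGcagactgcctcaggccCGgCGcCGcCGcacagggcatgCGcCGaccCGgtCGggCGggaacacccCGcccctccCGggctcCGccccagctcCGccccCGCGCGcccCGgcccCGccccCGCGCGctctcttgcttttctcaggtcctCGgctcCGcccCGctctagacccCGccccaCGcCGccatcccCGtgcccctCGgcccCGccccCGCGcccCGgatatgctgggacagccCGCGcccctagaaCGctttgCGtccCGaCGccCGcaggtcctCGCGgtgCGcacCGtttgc
IGFBP3: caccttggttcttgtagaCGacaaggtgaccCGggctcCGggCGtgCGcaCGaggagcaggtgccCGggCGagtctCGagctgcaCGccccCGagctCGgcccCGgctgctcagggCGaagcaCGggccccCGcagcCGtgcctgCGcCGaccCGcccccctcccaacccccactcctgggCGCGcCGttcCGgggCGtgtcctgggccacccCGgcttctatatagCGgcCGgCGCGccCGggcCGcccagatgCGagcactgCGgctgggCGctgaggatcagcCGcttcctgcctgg
GADD45G: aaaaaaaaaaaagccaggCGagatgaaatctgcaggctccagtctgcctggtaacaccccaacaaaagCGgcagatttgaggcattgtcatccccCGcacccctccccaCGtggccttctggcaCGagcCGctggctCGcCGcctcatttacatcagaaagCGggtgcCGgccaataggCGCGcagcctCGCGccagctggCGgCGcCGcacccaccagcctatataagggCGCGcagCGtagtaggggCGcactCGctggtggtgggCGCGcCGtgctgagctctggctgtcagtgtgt
KRT5: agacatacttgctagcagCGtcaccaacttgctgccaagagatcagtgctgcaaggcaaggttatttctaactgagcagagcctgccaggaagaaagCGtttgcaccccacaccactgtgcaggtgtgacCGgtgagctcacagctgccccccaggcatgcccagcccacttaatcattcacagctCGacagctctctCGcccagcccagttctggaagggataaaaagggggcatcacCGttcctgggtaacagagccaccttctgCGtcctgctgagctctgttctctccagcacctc
They hold 36, 45, 36, 25 and 7 CG in that order. IGFBP3, which binds insulin-like growth factors, was undetected at 84.4, 83.4 and 81.1. Of the 17 list members with a single promoter, the 10 detected in all 3 clones had a median of 32 CG and the 5 undetected 23. Methylation was not measured on these arrays.

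Across the 10508 protein-coding entries with a single promoter, promoters of detected genes held more CG. Undetected here means detected in none by p, whatever the mean signal. The median was 27 per window (interquartile range 21 to 35) for 4781 protein-coding genes detected in all 3 clones, 23 for 1672 genes detected in 1 or 2, and 10 (3 to 26) for 4055 detected in none. Fewer than 5 CG stood in 2.55% of the detected and 32.9% of the undetected promoters, and the undetected class still had 35.6% with 20 or more. The letters TATAAA, on either strand, stood in 5.10% of detected, 16.6% of undetected and 10.2% of all these promoters. Over the 1519 bright genes the median CG number was 28 and the TATAAA share 5.73%, close to the values of all detected genes. Genes are not independent replicates, and these shares are descriptions.

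**Figure D4:**
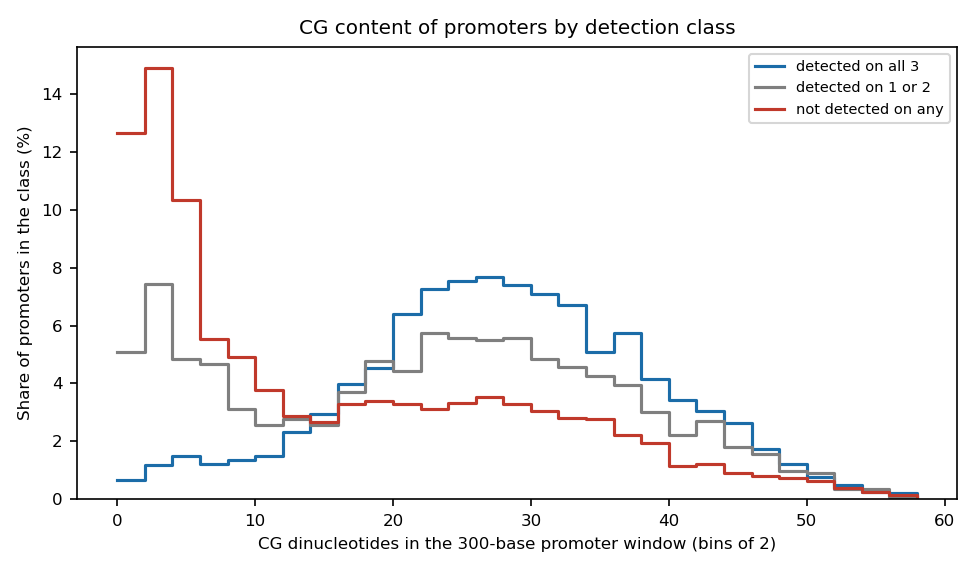
Distribution of the number of CG dinucleotides in the 300-base RefSeq promoter window, as a share of the promoters in each detection class. Detected genes (blue, median 27) form a single broad peak. Genes detected in none by p (red, median 10) pile up at the left with a long right shoulder.

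Among 22 apoptosis genes 15 were detected in all 3 clones (68.2%, against 30.4% of all and 44.5% of protein-coding genes), 3 in 1 or 2 and 4 in none. The count was 5 over genes in whole steps, a setting that leaves out most averaged genes, and 16 of the 22 were averaged. PMAIP1 (NOXA), a killer protein of the BCL2 family, gave 164, 202 and 187, and its relative BAX 177, 154 and 153. The survival proteins BCL2L1 (BCL-XL) and MCL1 gave 238, 257 and 202 and 160.4, 177 and 149. BAK1, a killer protein like BAX, was undetected at 85, 86 and 83.3, and so was the death receptor TNFRSF10A at 82.5, 87.1 and 81.1. Outside this list the ubiquitin ligase MDM2, averaged over several probes, was undetected at 81.7, 83.5 and 83.4 and its relative MDM4 at 84.6, 81.5 and 82.4.

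Of 11 telomere genes 6 were detected in all 3 clones (54.5%, against 30.4% of all and 44.5% of protein-coding genes). TERT, the catalytic subunit of telomerase, gave 78.6, 78 and 84.1 and TERC, the RNA of telomerase, 82.7, 80.6 and 83.6, undetected in every clone. ATRX, a chromatin remodeller often lost in cells that maintain telomeres by recombination, had averaged signals of 94.4, 91.1 and 91.3 with p-values of 0.165, 0.674 and 0.737, above the threshold by signal and not by p. Its partner DAXX was detected at 110.4, 116 and 116. Of the telomere-binding proteins, TINF2 gave 291, 356 and 312, TERF2IP (RAP1) 190.5, 236 and 181 and TERF2 121, 138 and 119, while POT1 was undetected at 82.3, 83.9 and 85.3.

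Of 12 genes of nucleic acid sensing pathways, 5 were detected in every clone (41.7%, near the 44.5% of protein-coding genes). Another 6 were detected in 1 or 2 clones and 1 in none, and 0 were bright. CGAS, the DNA sensor, listed under its older name C6ORF150, gave 101, 113 and 105, and its adaptor TMEM173 (STING) 91, 90.3 and 91.8, only just above background. IFI16, a nuclear DNA sensor, gave 145, 190.3 and 136 and the kinase TBK1 169.5, 249 and 186. TLR3, a sensor of double-stranded RNA, was the undetected member at 81.1, 80.3 and 79.4.

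In growth factor signalling, 8 of 20 receptors and RAS pathway genes were detected in all 3 clones, near the 44.5% of protein-coding genes. By signal 12 of the 20 lay above the threshold in every clone, and 12 of the 20 were averaged. AXL, a receptor kinase, was bright at 982, 1141 and 961, MYC gave 471, 569 and 389 and IGF2R, which clears insulin-like growth factor 2, 582, 627 and 599. MET gave 132, 161 and 132 and EGFR passed in control 2 only, at 83.7, 87.8 and 84.1. FGFR1 (80.8, 81.2 and 79.8), FGFR2 (78.5, 78.3 and 78), KIT (82.7, 81 and 82.8) and BRAF (84, 84.5 and 85.1) were undetected. HRAS had a mean of 112, 110.4 and 107 over several probes with no p that passed, and NRAS was detected at 169, 211 and 181.

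In the BMP and TGF-beta pathway, which drives bone formation, 18 of 29 genes were detected in all 3 clones (62.1%, against 30.4% of all and 44.5% of protein-coding genes). Of the ligands BMP4 gave 251, 314 and 287, BMP7 156, 165 and 172 and TGFB2 168, 205 and 139.5, while TGFB1 was undetected at 82.3, 82.8 and 84.9. Of the receptors ACVR1 gave 237, 296 and 258 and BMPR2 104, 128 and 109.9, and TGFBR1 was undetected at 79.9, 84.5 and 79. ID1 and ID3, direct targets of BMP signals, were bright at 639, 524 and 596 and 495, 394 and 475. The inhibitor SMAD6 gave 167, 188 and 179 and the antagonists FST and NOG gave 184, 210.0 and 195 and 106, 109 and 106, whereas GREM1 and CHRD were undetected.

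In the WNT pathway 12 of 27 genes were detected in all 3 clones (44.4%, beside 44.5% of protein-coding genes), 7 in 1 or 2 and 8 in none. The receptor FZD2 gave 240.4, 281 and 273, and the feedback target AXIN2 141, 154 and 151. LEF1, which binds beta-catenin on DNA, gave 116, 140.4 and 119.5, while its relative TCF7 was at 84.4, 84 and 79.5. WNT5A, a ligand of the beta-catenin-independent branch, passed at 89.7, 106 and 89.3, and its receptor ROR2 at 88.7, 100.5 and 97.9.

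Of 18 nuclear receptors, 3 were detected in every clone, RXRB at 329, 344 and 303, RXRA at 227, 185 and 189.5 and the mineralocorticoid receptor NR3C2 at 92.8, 99.7 and 92. The glucocorticoid receptor NR3C1 passed in control 2 only, at 84.3, 87.6 and 82.4. The oestrogen receptor ESR1 (84, 80.1 and 82.2) and the progesterone receptor PGR (83.6, 85.3 and 81.2) were undetected in each clone. VDR, the vitamin D receptor, which bone cells use, gave 87.6, 84.2 and 88.4 with p-values of 0.14, 0.443 and 0.166. The share detected, 16.7%, lay below both 30.4% of all genes and 44.5% of protein-coding genes, but by signal 6 of 18 lay above the threshold in every clone.

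Of 9 genes of DNA methylation, 5 of them averaged, 5 were detected in all 3 clones (55.6%, against 30.4% of all and 44.5% of protein-coding genes). The count was 3 at a p under 0.01 or over genes in whole steps. The maintenance enzyme DNMT1 was bright at 1781, 2195 and 1766 and its guide UHRF1 gave 345, 497 and 393, while the de novo enzyme DNMT3A was undetected at 82.6, 81.6 and 81.7 and DNMT3B passed at 92.2, 98.7 and 94.6. Of the TET enzymes, which oxidise methylcytosine, TET1 passed at 89.8, 98.8 and 101, and TET2 and TET3 were undetected. Cancer-testis antigens are germline genes that tumours can switch on. Of 19 such genes 6 were detected in all 3 clones (31.6%, against 30.4% of all and 44.5% of protein-coding genes). Of the 19 genes 18 were averaged. MAGEA1 gave 542, 627 and 551. MAGEA4 gave 257, 289.8 and 255 and PRAME 328, 369 and 350.0, while CTAG1B (NY-ESO-1) passed in control 2 only and GAGE1 was undetected at 81.1, 82 and 83.5. These families hold near-identical copies, and their values are uncertain.

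HOX genes, which keep the body position of a cell's origin, were detected in 10 of 39 cases (25.6%, against 30.4% of all and 44.5% of protein-coding genes). HOXC8 gave 238, 227 and 226, HOXB7 204, 200.2 and 179.7, HOXB2 176, 175 and 162 and HOXB5 147, 156 and 155. HOXC13 gave 130.3, 133 and 126 and HOXD11 113, 111 and 114. All 4 clusters had a detected member, and the terminal genes HOXA13 (84.2, 87.8 and 83.6) and HOXD13 (79.1, 82.2 and 82.6) were undetected.

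After background correction and quantile scaling, the range over the clones had a median of 0.27 on the log2 scale over 10513 detected genes and a 95th percentile of 0.76. It reached 2-fold in 157 genes (1.49%), and in 149 of these (94.9%) control 3 lay between the other clones, against 50.4% of detected genes. The 157 became 25 with the deposited log2 values, 45 with a larger offset and 101 after scaling to a common median. In 139 genes (1.32%) control 1 was at least 2-fold above control 2, and in 10 (0.0951%) control 2 above control 1. Control 3 was at least 2-fold above control 1 in 5 genes (0.0476%) and below it in 2 (0.019%), and above control 2 in 2 (0.019%) and below it in 3 (0.0285%). Without control 1 the count was 5 and without control 2 it was 7. No test was possible with 1 array per clone, and the median bead standard error was 3.32%, 2.97% and 3.23% of the signal.

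Genes of ribosomes and mitochondria were among those higher in control 1. RPL8, a large-subunit ribosomal protein, had log2 levels of 10.98, 9.37 and 10.53, a range of 3.05-fold, with wide bead errors of 516, 178 and 368 on signals of 1956, 711 and 1332. NDUFA11, of respiratory complex I, had levels of 9.03, 7.58 and 8.36 and a range of 2.73-fold, and MRPL41, of the mitochondrial ribosome, 8.48, 7.14 and 7.90 and 2.53-fold. For these 3 genes control 1 was highest, control 3 intermediate and control 2 lowest.

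COX6B1, of cytochrome c oxidase, ranged 2.46-fold, RPS21 2.46-fold and C6ORF125 (now UQCC2), an assembly factor of complex III, 2.45-fold. The histone gene HIST2H2AC ranged 2.6-fold, the snoRNA host gene SNHG6 2.5-fold, the chemokine CCL26 2.47-fold, ZNF593 2.43-fold and LSM7, a component of the U6 snRNP, 2.43-fold. COTL1, an actin-binding protein, departed from this order, with log2 levels of 6.43, 6.13 and 5.16, control 3 lowest and a range of 2.41-fold. Across the other offsets and scalings the range came under 2-fold for COTL1 (to 1.49), CCL26 (1.54), ZNF593 (1.75) and HIST2H2AC (1.82), and stayed at 2-fold or more for the other 8 genes with the widest range. By symbol, 14 of 76 detected genes of the respiratory chain and ATP synthase, 7 of 90 cytosolic and 6 of 73 mitochondrial ribosomal protein genes ranged at least 2-fold, all with control 1 at least 2-fold above control 2, beside 1.32% of all detected genes. These families were chosen after the names had been read. Among genes other than LOC and expressed-tag entries, the 93 that were higher in control 1 had a median RefSeq gene span of 3.08 kb (89 with a span), against 26.8 kb for 8856 detected genes (8651 with a span). The part of gene span in this pattern was not tested.

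**Figure D5:**
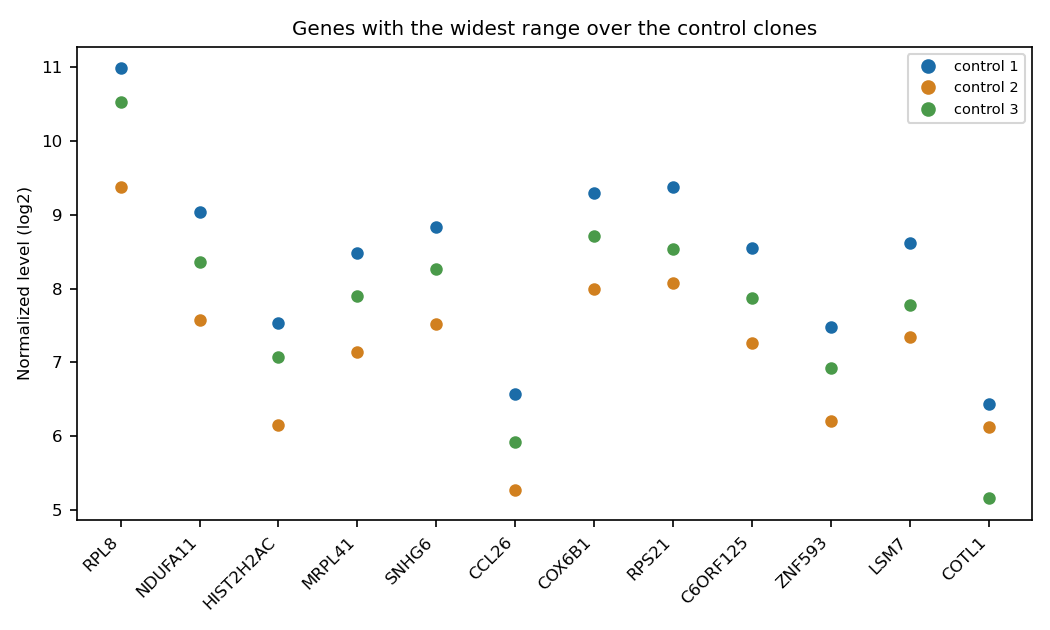
Normalized log2 level of the 12 named genes with the widest range among those detected in all 3 control clones, 1 point per clone. Control 1 (blue) lies on top in all 12 genes, control 2 (orange) lowest in 11 and control 3 (green) lowest in COTL1.

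Of 230 detected list members, 1 ranged at least 2-fold, TOP2A, with log2 levels of 9.87, 10.88 and 10.31 and control 2 the highest. Control 2 minus control 1 had a median of 0.39 over the 16 mitosis genes (12 of 16 positive) and 0.27 over the 16 replication genes (15 of 16 positive), beside 0.02 over all detected genes (52.9% positive). Across 6 scalings these medians ran from 0.24 to 0.45 and from 0.20 to 0.36, while that of all detected genes ran from 0.00 to 0.17, the last under scaling to a common median. The shift was not particular to genes of cell division. The 14 detected reference (housekeeping) genes had a median of 0.27 (14 of 14 positive), from 0.23 to 0.32 across scalings. The 5 detected genes of DNA methylation had 0.32 (5 of 5 positive), whereas the 7 detected integrins had -0.14 (3 of 7 positive). The 10 detected HOX genes had a median of -0.26 (1 of 10 positive), and -0.27 to -0.06 across scalings. Osteoblast matrix genes had a median of 0.04.

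The named genes that passed in some clones only were dim or averaged over probes. LPCAT1, a phospholipid acyltransferase, had signals of 84.2, 96.2 and 105 and passed in controls 2 and 3, at normalized log2 levels of 4.29, 4.81 and 5.35. TELO2, a co-chaperone of PI3-kinase-like kinases, gave 102, 91 and 84 and passed in controls 1 and 2. FUT8, a fucosyltransferase gene with averaged probes, gave 99.2, 110.4 and 85.7 and passed in control 1 only, though control 2 was brightest. SPANXB1, a sperm nuclear protein gene, also averaged, gave 163, 123 and 131 and passed in control 2 only, its dimmest array. The pseudogene PMS2L2 gave 98.2, 81.4 and 85.2 and passed in control 1 only. CKLF, a chemokine-like factor, gave 325, 217 and 241 and the ribosomal pseudogene RPS26P11 1046, 588 and 721. SPANXB1, CKLF and RPS26P11 are averaged genes that sat well above the threshold by signal in every clone, so their missing detection calls say nothing of absence.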

How the data were processed

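Total RNA of 3 control and 3 knockout clones of U2OS was hybridised to Illumina bead arrays, 1 array per clone. The authors deposited, per the file headers, a mean bead intensity per gene, a detection p-value against background beads, a bead standard error and a mean bead number per gene. A second deposited table holds log2 values whose distribution is equal on all arrays. Per the submitters' processing notes lumi and limma were used, with roles and versions not given. Each column's number matches 1 sample description. The 92 spike-in entries were left out.

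Detection counts use the deposited intensity and p-value unchanged. A gene was taken as measured by 1 probe where bead numbers were whole and p was a whole multiple of 1/770, within 0.001 of a step, on all 6 arrays. For differences between clones, intensities were corrected with limma 3.58.1 (R 4.3.3, normexp from the detection p of genes in whole steps, offset 16), taken to log2 and quantile normalized over the 6 arrays. The background mean was 81.7 to 84.2. This step was checked on simulated arrays. Motifs and counts were computed with Python 3.11.15 (pandas 2.3.3), and figures with matplotlib 3.10.9. RefSeq tables of GRCh38.p14 gave current symbols for 21043 genes and promoter windows.

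Members and gene lists were chosen with earlier results of these data known. The olfactory receptors, symbol families, gene spans, printed promoters and the signal threshold were chosen after values had been seen. Named genes are the 15 brightest, list members, the 12 with the widest range over clones and the 8 with the widest range among those detected in 1 or 2 clones. ANXA2 was added after its values were seen, and 1 expressed-tag entry of the last group has no gene name. No group was compared with another, so no test across samples was run. The number of arrays limits precision. Alternatives covered the detection threshold, each array left out, probe averaging, scaling and filters. Some list members are counted but not reported here.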

Additional observations from a re-analysis of the deposited data

How the results depend on the processing

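Counts of detected, undetected and bright genes kept within 1.5 times under most alternatives. The 10513 genes detected in all 3 clones became 8980 at a detection p under 0.01, 8897 with genes in whole detection steps only and 11751 when signal replaced p, a setting chosen after seeing the data. Of 27316 genes in whole steps, 26150 were measured by 1 probe, of which 7731 were detected in all 3 clones. The averaged genes kept in whole steps were all detected in all 3 clones, so this count is no independent check of detection. Requiring detection in 1 of 3 clones gave 16908. A limit at the top 5% of signals gave 1537 bright genes in place of 3148. The count of genes ranging at least 2-fold moved more. It was 157, and 25 with the deposited log2 values, which carry no background correction, 45 with an offset of 50 and 101 after scaling to a common median. With 1 array left out it ran from 5 to 149, being 5 without control 1, 7 without control 2 and 149 without control 3. The cause was not tested. Over 34 lists and 6 alternatives, 185 of 204 list counts stayed within 1.5 times and 19 did not, 6 of them at the stricter p, 7 with whole-step genes, 3 by signal and 3 with an array left out. No paired analysis was possible because only the control group was described and no groups were compared. Signal over background limits the dim genes, since many detected genes lie within a few intensity units of the threshold.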
